A study of Mus musculus with 2 samples.

Results

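Rab GTPases were examined in CMT167R cells, an anti-PD1-resistant derivative of a mouse lung carcinoma line, with and without a compound that the labels call PKCi. All protein-coding genes whose symbol was Rab, a number and at most a letter and further digits were taken, which gave 59 of 54532 genes in the deposited table. The set was thus chosen by name and not by any measured value. The set, its compartments and the lists of partner genes were, however, picked with earlier results of these data known. One library came from untreated cells (CON) and the other from cells given 50 nM PKCi for 24 h. The identity of the compound, whether CMT167R is a clone and whether any culture was repeated are not stated in the labels. With 1 library in each group, a difference below has no replicate check and no p-value is given. In bulk RNA, a smaller number of cells that express a gene and less of its RNA in each cell cannot be told apart.

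Rab proteins form the largest branch of the Ras superfamily of small GTPases. Each one marks particular membranes: it is switched on there by an exchange factor that loads GTP, recruits effectors that tether, move or fuse vesicles, and is switched off by a GTPase-activating protein. Geranylgeranyl tails anchor Rabs in the membrane, and GDP dissociation inhibitors carry the inactive form through the cytosol. In carcinoma cells they are known for setting how receptors and integrins are taken up, recycled or degraded, and for the release of granules and exosomes.

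The libraries held 16090186 (CON) and 16071153 (PKCi) gene counts. Levels are counts scaled to a total of 1000000 per library (CPM), where 1 CPM stood for 16.1 counts in both. Rab genes together took 0.316% of the counts untreated and 0.324% with PKCi. The epithelial keratins Krt8 (933 and 1182 CPM) and Krt18 (643 and 765 CPM) were abundant in both. Krt7 was 1.46-fold lower with PKCi (43.5 and 29.8 CPM). Epcam (3.48 and 6.28 CPM) and Cdh1 (2.92 and 3.36 CPM) were low and Cldn4 had 2 and 3 counts. One protocol in the labels speaks of retinas. Of 8 retina markers 7 had no count in either library and Pde6b had 1 in each. Summed over the marker lists, epithelial markers were at 1692 and 2065 CPM, leukocyte markers at 2.36 and 3.61, fibroblast markers at 11.9 and 11.5 and endothelial markers at 0.621 and 1.24. Krt8 and Krt18 made up most of the epithelial sum, so it does not describe each marker. Within the fibroblast list Col1a1 was 2.04-fold lower (143 and 70 counts), Pdgfra was 2.26-fold higher (43 and 97 counts) and Dcn had 1 and 17 counts. Ptprc, Cd3e and Itgam were at 0 in both. The part of these marker levels in the Rab results was not tested.

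A gene was called measured at 1 CPM or more in at least 1 library. Of the 59 Rab genes 42 were measured, each of them in both libraries. The other 17 had at most 15 counts in a library, and 5 of these (Rab3c, Rab9b, Rab39, Rab39b and Rab42) had 0 counts in both, which allows up to 0.187 CPM (3 counts of the total). The low group held Rabs of neurons and secretory cells (Rab3b, Rab26, Rab37), the epithelial Rab25 (4 and 9 counts) and Rab36, the highest of them, with 5 and 15 counts.

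Most Rab genes differed little between the libraries, and the exceptions were few and went both ways. A size of 2-fold or 1.5-fold was counted on log2((PKCi + 1)/(CON + 1)) in CPM, a scale that understates the ratio of low genes. At 2-fold, Rab5b alone was higher and Rab27a alone was lower (1 of 42 each way). Among 10943 measured protein-coding genes, 6.46% passed 2-fold upward and 5.36% passed it downward. At 1.5-fold, 5 Rab genes were higher (Rab5b, Rab43, Rab5a, Rab3d and Rab6b) and 5 lower (Rab27a, Rab30, Rab38, Rab34 and Rab27b). That was 11.9% each way, beside 16.2% and 17.0% of protein-coding genes. The Rab counts were near or below those shares, and 27 of 42 (64.3%) lay within 1.25-fold against 42.0% of protein-coding genes. The median log2 ratio was 0.05 over the Rab genes, with quartiles at −0.12 and 0.29, and −0.02 over protein-coding genes, with quartiles at −0.41 and 0.37. Single-gene folds below are plain ratios of CPM with an exact 95% interval that covers counting error only. That interval excluded 1 for 28 of 42 Rab genes and for 75.1% of measured protein-coding genes, so at this depth it is no measure of a response.

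The promoters of the Rab5 genes and of Rab27a are shown first, because on the log2(CPM + 1) scale Rab5b had the highest and Rab27a the lowest value of the measured Rab genes. RefSeq promoter windows (GRCm38.p6) were available for 48 of the 59 genes, with 60 starts in all. The 250 bases before each start are given 5′ to 3′ on the gene's strand. For Rab5a and Rab5c the first bases after the start were found in an annotated GENCODE transcript of the gene. For Rab5b and both Rab27a starts they were not, so these starts were not matched there. Capitals mark matches, on either strand, to 4 motifs, none of which can lie within another. The E-box was read as CACGTG and the GC box as GGGCGG. The CCAAT box was read as its name is spelled. An AP-1 site was read as TGANTCA.
Rab5a (chr17:53478984-53479233, plus strand): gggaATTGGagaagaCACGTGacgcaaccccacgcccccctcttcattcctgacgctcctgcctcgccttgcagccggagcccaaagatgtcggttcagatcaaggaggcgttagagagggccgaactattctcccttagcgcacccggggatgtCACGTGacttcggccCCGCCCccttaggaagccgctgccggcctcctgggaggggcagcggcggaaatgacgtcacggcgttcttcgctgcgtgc
Rab5b (chr10:128696269-128696518, minus strand): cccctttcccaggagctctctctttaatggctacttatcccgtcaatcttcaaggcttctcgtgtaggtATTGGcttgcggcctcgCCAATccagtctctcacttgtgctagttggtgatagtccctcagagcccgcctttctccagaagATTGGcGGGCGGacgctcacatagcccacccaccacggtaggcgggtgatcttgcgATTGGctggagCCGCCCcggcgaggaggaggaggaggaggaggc
Rab5c (chr11:100738216-100738465, minus strand): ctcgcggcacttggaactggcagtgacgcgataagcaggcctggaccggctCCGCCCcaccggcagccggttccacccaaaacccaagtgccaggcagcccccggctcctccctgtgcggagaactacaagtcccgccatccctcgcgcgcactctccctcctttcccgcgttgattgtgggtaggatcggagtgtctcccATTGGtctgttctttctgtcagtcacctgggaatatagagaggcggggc
Rab27a, first start (chr9:73044560-73044809, plus strand): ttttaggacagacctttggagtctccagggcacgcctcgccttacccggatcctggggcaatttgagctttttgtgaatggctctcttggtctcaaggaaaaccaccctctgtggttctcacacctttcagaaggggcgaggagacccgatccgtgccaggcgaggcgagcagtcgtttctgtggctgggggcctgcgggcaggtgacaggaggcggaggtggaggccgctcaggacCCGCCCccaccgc
Rab27a, second start (chr9:73063898-73064147, plus strand): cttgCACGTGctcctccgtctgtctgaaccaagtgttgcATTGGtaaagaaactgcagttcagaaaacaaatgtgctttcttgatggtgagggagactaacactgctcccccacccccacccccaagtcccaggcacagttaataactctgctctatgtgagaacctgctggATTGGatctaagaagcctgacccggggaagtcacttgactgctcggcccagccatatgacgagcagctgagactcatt

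The Rab5 promoters thus differed in their letters. The Rab5a window held 2 E-boxes, a motif bound by MYC, USF and the lysosomal regulator TFEB, while the Rab5b window held none and had 4 CCAAT boxes and 2 GC boxes. Rab5c had 1 GC box and 1 CCAAT box. The second Rab27a start had 1 E-box and 2 CCAAT boxes, and the first had 1 GC box. Among all 60 Rab windows, GC boxes were in 66.7% and CCAAT boxes in 40%, against 32.7% and 33.8% of all 32851 promoter windows of the same length. E-boxes were in 8.33% of Rab windows and 6.02% of all windows, and AP-1 sites in 3.33% and 6.75%. Windows of 1 gene can overlap. A match is a string of letters, not a shown binding site.

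Rab genes spanned more than 2 orders of magnitude in level, so their order was taken per kb of listed gene length. Rab7, which drives traffic to late endosomes and lysosomes, led in both libraries at 115.5 CPM per kb untreated and 107.8 with PKCi. Rab1b (83.3 and 71.0 CPM per kb), Rab2a (80.1 and 78.2), Rab5c (71.9 and 74.0) and Rab1a (71.4 and 58.7) came next. Within the untreated library Rab1b and Rab2a had overlapping counting intervals (79.99 to 86.6 and 77.2 to 83.2 CPM per kb), as did Rab5c and Rab1a, so these neighbours have no set order. The 10 highest took 65.3% of the Rab total per kb untreated and 60.9% with PKCi, and 9 of the 10 were the same genes. Rab34 was among them only in CON (52.0 and 33.8 CPM per kb) and Rab6a only in PKCi (29.2 and 38.5).

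**Figure D1:**
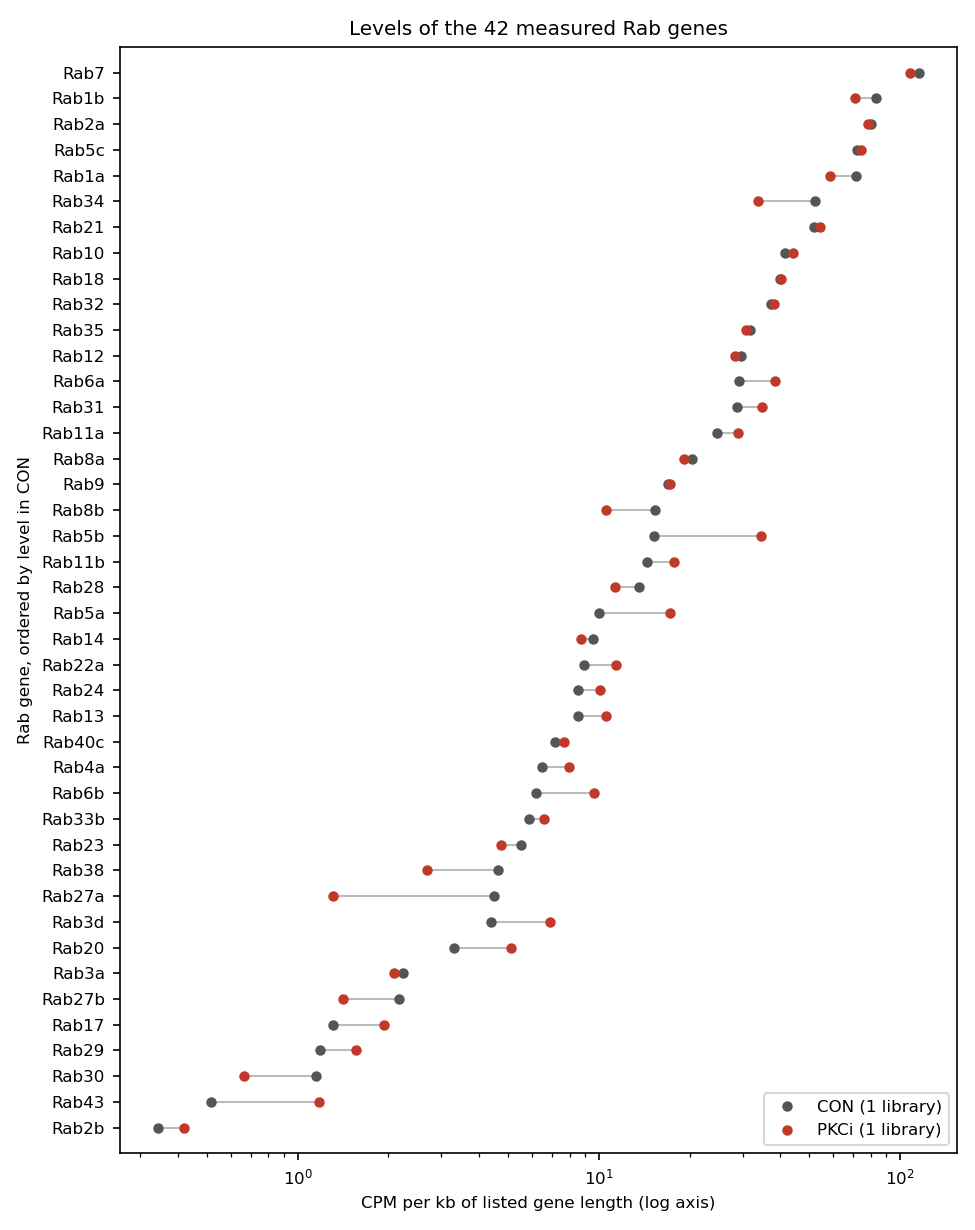
Level of each of the 42 measured Rab genes in the CON and PKCi libraries, in CPM per kb of listed gene length on a log axis, ordered by level in CON, with 1 point per library. Rab7 is highest in both libraries, most pairs of points nearly coincide, and Rab27a, Rab43 and Rab5b have the widest gaps.

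Early endosome Rabs were the compartment in which each measured member was higher with PKCi. All 7 had a log2 ratio above 0, as did 48.5% of protein-coding genes, with a median of 0.35 and values from 0.04 to 1.17. Compartments were assigned with earlier results of these data known, and many Rabs act at several sites. The count of 7 thus depends on where each Rab was placed and is a description only. Rab5 recruits the machinery that fuses incoming endocytic vesicles. Rab5b was at 64.0 CPM (1030 counts) untreated and 145.5 CPM (2339 counts) with PKCi, 2.27-fold higher (95% interval 2.11 to 2.45). Rab5a was at 52.7 and 90.7 CPM (848 and 1458 counts), 1.72-fold higher (1.58 to 1.88). Rab5c was nearly level, at 158 and 162.5 CPM (1.03-fold, 0.975 to 1.09).

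The other early endosome Rabs lay between those extremes. Rab20, linked to phagosome maturation, was at 4.60 and 7.09 CPM (74 and 114 counts, 1.54-fold, 1.14 to 2.10), just under the 1.5-fold size on the log2 scale. Rab22a, which acts between early and recycling endosomes, was 1.28-fold higher (64.2 and 82.1 CPM) and its relative Rab31 1.21-fold (110 and 133 CPM). Rab21, which binds integrins and guides their uptake, was at 262 and 274 CPM (1.05-fold). Summed counts of the 7 genes were 1.25-fold higher with PKCi (715 and 895 CPM, 1.22 to 1.28), and their part of the Rab total per kb was 19.2% untreated and 23.3% with PKCi. Most of the added counts came from Rab5b (1030 and 2339 counts) and Rab5a (848 and 1458 counts), so the sum does not describe each member.

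**Figure D2:**
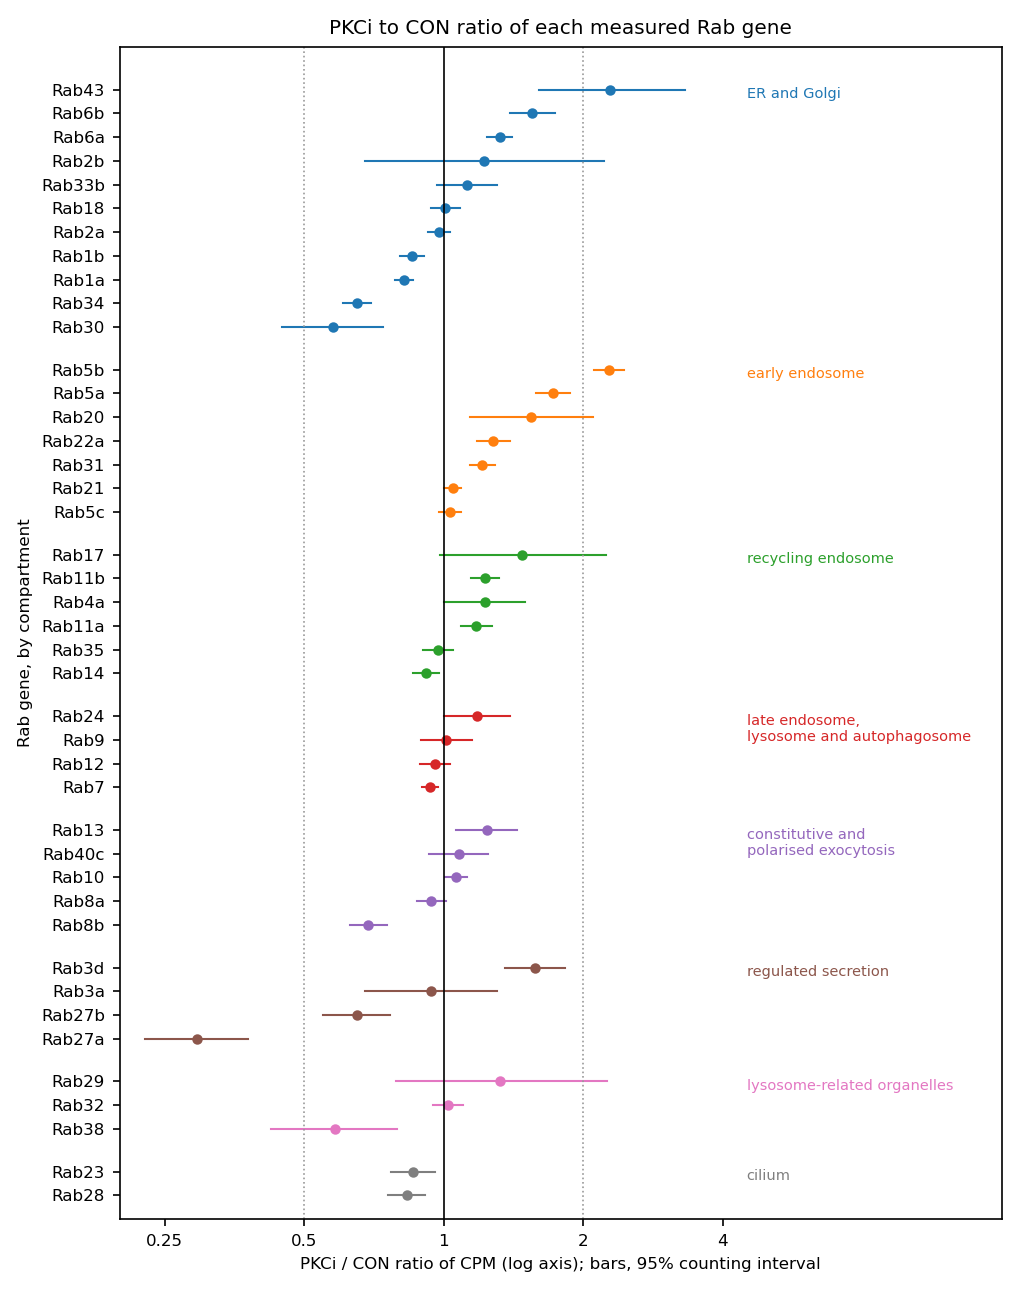
PKCi to CON ratio of CPM for the 42 measured Rab genes, grouped by the compartment where each mainly acts, on a log axis with exact 95% counting intervals as bars (1 library per group). Dotted lines mark 2-fold; the 7 early endosome genes lie to the right of 1, Rab27a lies farthest to the left, and the other compartments hold genes near or on both sides of 1.

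Secretory Rabs held the lowest ratio of the family. Rab27a, which docks multivesicular bodies and secretory granules at the plasma membrane and is needed for exosome release in many cells, was at 17.3 CPM (279 counts) untreated and 5.10 CPM (82 counts) with PKCi. This was 3.40-fold lower (2.65 to 4.40). Its paralog Rab27b was 1.54-fold lower (23.2 and 15.1 CPM, 1.31 to 1.82). Rab3d, a Rab of exocrine granules, went the other way at 18.3 and 28.8 CPM (295 and 463 counts), 1.57-fold higher (1.35 to 1.82), and Rab3a was at 4.97 and 4.67 CPM (1.07-fold lower, 0.768 to 1.48). Past 1.5-fold, 1 of the 4 measured secretory Rabs was thus higher and 2 were lower, a count too small to set against the 16.2% and 17.0% of protein-coding genes. The median log2 ratio was −0.33. With no filter on low values the median was 0.05, since the added genes had few counts.

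Among Rabs of the endoplasmic reticulum and Golgi, genes lay on both sides of 1, 6 of 11 above a log2 ratio of 0 and 5 below, with a median of 0.01. Rab43, a Golgi Rab, was at 2.86 and 6.53 CPM (46 and 105 counts), 2.29-fold higher (1.60 to 3.31). Rab6b, a form of the Golgi Rab6 that is best known from neurons, was 1.55-fold higher (31.2 and 48.5 CPM, 1.39 to 1.74), and the more abundant Rab6a 1.32-fold (109 and 143.5 CPM). On the low side were Rab30, a Golgi Rab, at 11.1 and 6.41 CPM (179 and 103 counts, 1.74-fold lower, 1.35 to 2.23), and Rab34, which acts at the Golgi, in macropinocytosis and in cilium assembly, at 124 and 80.7 CPM (1.54-fold lower, 1.43 to 1.65). The general ER-to-Golgi Rabs differed less, with Rab1a 1.22-fold lower (271 and 223 CPM), Rab1b 1.17-fold lower (153 and 130 CPM) and Rab2a at 171 and 167 CPM. Summed counts of the compartment were at 985 and 922.5 CPM, and its part of the Rab total per kb was 37.4% untreated and 34.1% with PKCi.

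The remaining compartments had 2 to 6 measured genes each, too few to set against the 16.2% and 17.0% of protein-coding genes past 1.5-fold. In them 1 gene passed 1.5-fold. It was Rab38, a Rab of melanosomes and of the lamellar bodies of lung alveolar cells, at 7.27 and 4.23 CPM (117 and 68 counts, 1.72-fold lower, 1.26 to 2.35). Rab32, its close relative, was at 87.4 and 89.4 CPM (1.02-fold, 0.949 to 1.10). Recycling endosome Rabs had log2 ratios from −0.13 to 0.43 over 6 genes. Rab11a and Rab11b, which return receptors to the surface, were 1.18-fold (74.0 and 87.0 CPM) and 1.23-fold higher (88.6 and 109 CPM). Rab35, which acts in fast recycling and led this compartment per kb untreated, was at 89.7 and 87.05 CPM (1.03-fold lower, 0.957 to 1.11). Rab17, an epithelial Rab, was at 2.61 and 3.86 CPM, with an interval of the 1.48-fold ratio (0.983 to 2.24) that holds 1. The 4 late endosome, lysosome and autophagosome Rabs lay between −0.10 and 0.22. Rab7 itself was at 301 and 281 CPM and the lysosomal recycling Rab9 at 29.8 and 30.2 CPM.

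None of the 5 exocytic and 2 ciliary Rabs passed 1.5-fold, numbers too small to set against the 16.2% and 17.0% of protein-coding genes. Rab10, which carries vesicles to the surface, was the most abundant per kb of the exocytic Rabs and stood at 146 and 155 CPM (1.06-fold). Rab8b was 1.45-fold lower (72.9 and 50.2 CPM, 1.33 to 1.59), while Rab8a was at 95.4 and 89.7 CPM. The tight-junction Rab13 was at 19.6 and 24.3 CPM. Rab28 and Rab23, both tied to cilia, were 1.20-fold lower (61.8 and 51.4 CPM) and 1.17-fold lower (45.6 and 39.1 CPM).

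Paralogs within a family were compared by the ratio of their folds, which does not depend on library scaling. In this comparison a fold is the PKCi to CON ratio, so a gene that was lower with PKCi has a fold under 1. For 10 pairs in the 8 families with at least 2 measured members, the 95% counting interval of this ratio excluded 1 in 7. No such share was taken for other gene pairs, and 3 of the 10 pairs come from the Rab5 family, so the count is a description of these libraries only. Rab5b relative to Rab5c had a fold 2.21 times as large (2.01 to 2.42), Rab5a relative to Rab5c 1.67 times (1.51 to 1.85), and Rab5b relative to Rab5a 1.32 times (1.18 to 1.48). Rab5c made up 74.0% of the Rab5 level per kb untreated and 58.8% with PKCi, and Rab5b 15.7% and 27.5%. In the Rab27 family the part of Rab27a was 67.3% untreated and 48.3% with PKCi, where the counting intervals of both levels per kb overlapped (1.05 to 1.63 CPM per kb for Rab27a and 1.24 to 1.60 for Rab27b). In counts not divided by length, the part of Rab27a was 42.8% untreated and 25.3% with PKCi. Which of the Rab27 genes led untreated thus depends on the listed lengths. The PKCi to CON ratio of Rab27b was 2.21 times that of Rab27a (1.63 to 3.004), as both were lower with PKCi and Rab27a by more. Rab3d against Rab3a gave 1.67 (1.16 to 2.41), Rab8a against Rab8b 1.37 (1.22 to 1.54) and Rab6b against Rab6a 1.18 (1.03 to 1.34). Rab1b and Rab1a (1.04, 0.964 to 1.12), Rab11b and Rab11a (1.04, 0.939 to 1.16) and Rab2b and Rab2a (1.25, 0.691 to 2.27) had intervals that hold 1. The longest identical run between the annotated transcripts of a pair was 14 to 38 bases over these 10 pairs (35 for Rab5a and Rab5b, 32 for Rab27a and Rab27b), shorter than the 150-base reads. Pseudogenes were not part of this comparison. The processed pseudogenes Rab11b-ps2 (117 and 180 counts) and Rab7-ps1 (110 and 129 counts) had counts, and whether they share reads with Rab11b and Rab7 was not tested.

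**Figure D3:**
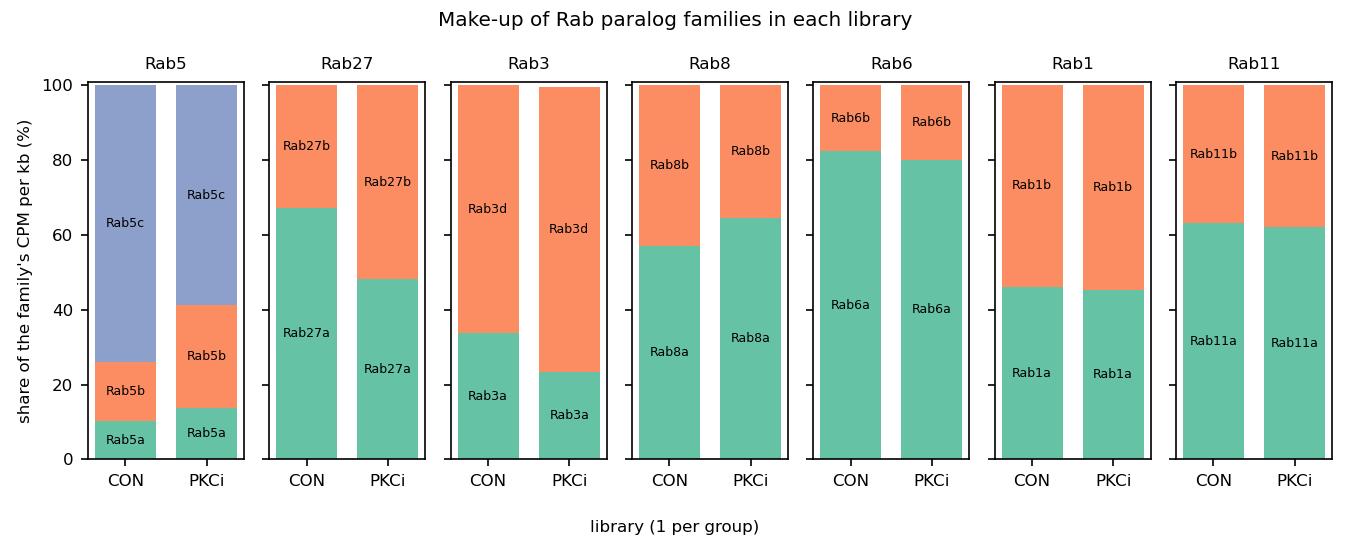
Share of each paralog in the summed level of its family, in percent of CPM per kb, for the CON and PKCi libraries (1 library per bar; members under 1% in both are not drawn). Rab5c makes up 74.0% of the Rab5 family in CON and 58.8% in PKCi, Rab27a makes up 67.3% and 48.3% of the Rab27 family, and the Rab1 and Rab11 bars are nearly alike.

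Positions are those of the deposited table on GRCm38. Rab5b (ENSMUSG00000000711) lies at chr10:128677175-128696264 (minus strand), and Rab5a (ENSMUSG00000017831) at chr17:53479234-53507680 (plus strand). Rab27a (ENSMUSG00000032202) lies at chr9:73044854-73097629 (plus strand). Of the other genes past 1.5-fold, Rab43 lies at chr6:87788853-87812164 (minus strand), Rab6b at chr9:103111787-103185276 (plus strand) and Rab3d at chr9:21907491-21918192 (minus strand). Rab30 lies at chr7:92741603-92844535, Rab38 at chr7:88430273-88491572 and Rab34 at chr11:78188430-78192193, all on the plus strand. Of the 59 genes, 57 had the same chromosome, start, end and strand in GENCODE M21. Exons of Rab5a overlapped 221 bases of Pp2d1 on the opposite strand, which had 1 count in each library, and exons of Rab27a overlapped 149 bases of a pseudogene with 0 counts. Exons of Rab43 shared 4164 bases with a same-strand gene model, Gm45140, which had 2 and 0 counts, so the Rab43 counts depend on how such reads were assigned. Rab24 shared 1258 exon bases with Prelid1 on the opposite strand (10720 and 9897 counts), and Rab24 levels are uncertain for that reason. Among others, Rab6a shared 708 exon bases with Mrpl48 (422 and 300 counts) and Rab2b 195 with Tox4 (1453 and 1493 counts), also on the opposite strand. The levels of Rab6a and Rab2b and their paralog ratios have the same limit.

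Genes that load, recycle and switch Rabs were set beside them. In the group for prenylation and membrane recycling, 6 of 8 genes had log2 ratios above 0, as did 48.5% of protein-coding genes, and the median was 0.49. Rabac1, a prenylated Rab acceptor, was at 54.6 and 123 CPM (2.25-fold higher, 2.08 to 2.44). Gdi2, a GDP dissociation inhibitor, was at 578 and 481 CPM (1.20-fold lower). The 2 subunits of the geranylgeranyl transferase that modifies Rabs differed in direction, with Rabggtb at 68.1 and 38.6 CPM (1.76-fold lower) and Rabggta at 52.4 and 75.4 CPM (1.44-fold higher). Rabif, a chaperone of nucleotide-free Rabs, was 1.503-fold higher (31.8 and 47.7 CPM).

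Exchange factors had a median of −0.01 over 33 measured of 36 listed, and past 1.5-fold 5 (15.2%) were higher and 3 (9.09%) lower. Both shares lay below those of protein-coding genes (16.2% and 17.0%). Rab5 activators of the Rin family stood at opposite ends: Rin2 was 2.13-fold higher (39.4 and 84.1 CPM, 1.94 to 2.35) and Rin3 1.76-fold lower (153 and 86.9 CPM, 1.65 to 1.88). Rin1 was at 95.8 and 112 CPM, and the Rab5 activators Rabgef1 (30.8 and 30.05 CPM) and Gapvd1 (137 and 133 CPM) were nearly level. Hps1, part of the Rab32 and Rab38 activator, was at 24.98 and 43.5 CPM (1.74-fold higher), while its partner Hps4 was nearly level (25.3 and 24.95 CPM). Dennd2d, linked to Rab9, was at 4.04 and 2.05 CPM (1.97-fold lower, 1.28 to 3.09). Of 14 measured subunits of TRAPP, the Rab1 and Rab11 activator, 1 passed 1.5-fold. It was Trappc6a, at 14.4 and 29.3 CPM (2.04-fold higher), while Trappc13 was 1.40-fold lower, Trappc4 1.25-fold lower and Trappc6b 1.22-fold higher.

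Of 36 measured GTPase-activating protein genes, 5 (13.9%) passed 1.5-fold upward and 0 downward, beside 16.2% and 17.0% of protein-coding genes, and the median was 0.04. The upward share was thus no higher than the background. They were led by Tbc1d30 (5.90 and 11.8 CPM, 1.99-fold), Tbc1d24 (7.33 and 12.6 CPM, 1.72-fold), Rabgap1 (25.5 and 41.4 CPM, 1.62-fold) and Grtp1 (26 and 50 counts). Of 8 genes for the tethers of early and late endosomes (HOPS and CORVET), 6 Rab-like GTPases and 2 measured Rab kinase or phosphatase genes, 1 in all passed 1.5-fold. This was Lrrk1, a kinase of Rab7, at 192 and 110 CPM (1.74-fold lower). The Rab phosphatase gene Ppm1h was at 39.8 and 57.9 CPM, and Vps11 and Vps41 of the HOPS tether were 1.39-fold and 1.38-fold higher. Vps18 was 1.30-fold higher and Vps33a 1.24-fold lower. Of the Rab-like genes, Rasef was 1.41-fold higher, Rabl6 1.32-fold lower, Rabl3 1.26-fold lower and Ift27 1.14-fold lower.

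Effectors, the proteins that active Rabs recruit, had a median of 0.29 over 34 measured of 49 listed. Past 2-fold, 5 (14.7%, beside 6.46% of protein-coding genes) were higher and 0 (beside 5.36%) were lower. Past 1.5-fold, 9 (26.5%, beside 16.2%) were higher and 1 (2.94%, beside 17.0%) was lower. Myo5b, a myosin motor that Rab11 uses, was at 2.55 and 13.6 CPM (41 and 219 counts, 5.35-fold higher, 3.82 to 7.66), and the Rab11 effector Rab11fip1 at 21.6 and 52.9 CPM (2.45-fold higher). The Rab5 effector Appl2 was 2.27-fold higher (17.6 and 39.95 CPM, 1.97 to 2.62), and Micall1, which acts on recycling endosomes, 2.08-fold. Unc13d, the Rab27a partner that primes granules, was at 22.5 and 63.5 CPM (2.82-fold higher, 2.50 to 3.19).

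The partners of Rab5 and Rab27 did not all resemble these examples. Of other Rab5 effectors, the endosome tether Eea1 was 1.59-fold higher (162 and 257 CPM), Appl1 was at 44.3 and 43.3 CPM, Rbsn at 64.3 and 56.2 CPM, and Rabep1 was 1.27-fold lower (88.8 and 70.0 CPM). Among other listed Rab27 partners, Rph3al, which also binds Rab3, was 1.76-fold higher (5.66 and 9.96 CPM, 1.35 to 2.30), while the Sytl1 to Sytl5 genes, Myrip, Mlph and Exph5 were each under 1 CPM in both libraries, with at most 9 counts. These genes were chosen for their link to Rab5 and Rab27 after their values were seen. The only effector at least 1.5-fold lower was Rabepk, at 28.6 and 15.6 CPM (1.84-fold).

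**Figure D4:**
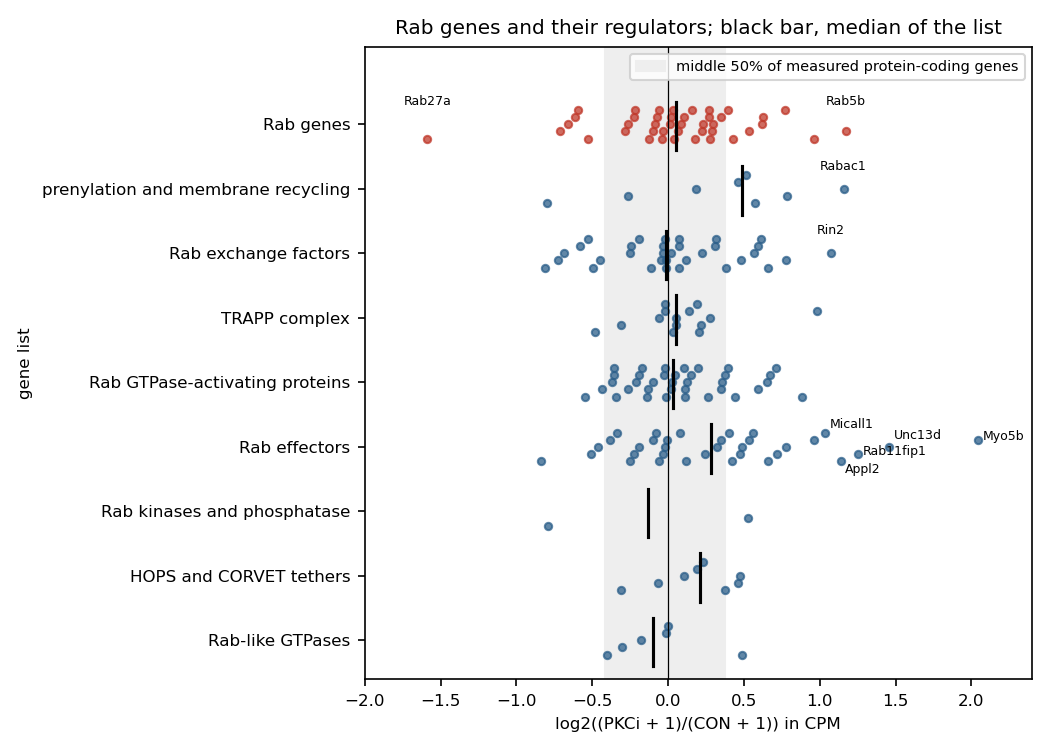
Log2 ratio of PKCi to CON, log2((PKCi + 1)/(CON + 1)) in CPM, for the measured Rab genes and 8 lists of Rab regulators and partners, with 1 point per gene, a black bar at each list's median and the middle 50% of measured protein-coding genes in grey. The Rab median lies at 0.05, the effector median at 0.29 with Myo5b farthest right, and the prenylation and recycling median at 0.49.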

How the data were processed

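Messenger RNA of 1 untreated and 1 PKCi-treated CMT167R culture was sequenced as stranded paired-end libraries, per the labels' protocols. HISAT2 2.0.5 and GRCm38 (mm10) were used, per the submitters' processing notes; for the counting program, strand setting and filters, the answer is not given in the sources used here. Whole-number counts per gene were deposited by the authors, under a name that speaks of FPKM. Median-ratio size factors of the columns were 1 and 1, so a prior equalisation of depth by a few percent cannot be told apart from like depth. Unassigned sample columns numbered 0.

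Counts were scaled to the library total (CPM). Genes with at least 1 CPM in 1 library were kept, and a pseudocount of 1 CPM was used for log2 ratios. Folds have exact conditional binomial (Clopper-Pearson) 95% intervals, shares of levels have none, and ratios of folds have exact conditional odds-ratio intervals. All cover counting error only, since molecules were not tagged. For a count of 0, 3 counts set the upper limit. Alternatives were other pseudocounts and filters, edgeR 4.0.16 TMM factors, DESeq2 1.42.0 size factors and TPM. SciPy 1.17.1 was used, and the procedure was run on simulated libraries with planted folds. Those libraries held counting error only, so they cannot check for variation between cultures.

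Each Rab was put in 1 compartment by its best-known site, although many act at several. Named are all Rabs past 1.5-fold, the highest per kb of each compartment and up to 4 genes of each partner list by size of the log2 ratio; further members are given for context. Individual values of some listed genes are not reported here. The members, lists and promoter motifs were chosen with earlier results of these data known.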

Additional observations from a re-analysis of the deposited data

How the results depend on the processing

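Over 8 alternatives (pseudocounts of 0.1 and 5 CPM, no filter, a filter of 5 CPM, a mean of at least 1 CPM, TMM, DESeq2 size factors and TPM), all 80 values of the 10 Rab genes past 1.5-fold kept their direction. Of these 1 moved by more than its counting interval, that of Rab27a, which was −1.59 and became −1.14 with a pseudocount of 5 CPM. Rab genes at least 2-fold higher numbered 2 instead of 1 with a pseudocount of 0.1 CPM, Rab43 being the added one. With a pseudocount of 5 CPM, 2 Rab genes (Rab5a and Rab5b) instead of 5 were at least 1.5-fold higher and 2 (Rab27a and Rab34) instead of 5 at least 1.5-fold lower. With TPM 3 were at least 1.5-fold lower (Rab27a, Rab34 and Rab38). The median of the secretory Rabs was −0.33 and turned to 0.0468 with no filter on low values, where genes with few counts entered. Both shifts with the pseudocount follow from its size, which weighs most on low genes. No paired analysis was possible because each group has 1 library. With 1 library per group, differences between cultures cannot be separated from the treatment. For Rab2b (23 and 28 counts), Rab29 (28 and 37 counts) and Rab17 (42 and 62 counts) the counting interval held both 1 and a 1.5-fold ratio. A 1.5-fold ratio also lay in the intervals of Rab6b, Rab3d, Rab34, Rab27b, Rab30 and Rab38, which passed 1.5-fold, and of Rab20 and Rab8b, which did not.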
